A study of Mus musculus with 9 samples.

Results

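The genes described here are those that encode the proteins of the cytosolic ribosome, the machine that translates messenger RNA into protein. They were taken by name, as the mouse gene symbols that begin with Rpl or Rps followed by a digit, without pseudogenes (-ps) and symbols that hold a k, such as those of the ribosomal protein S6 kinases. The rule gave 82 of the 31053 genes listed, 49 named for the large subunit and 33 for the small subunit. It leaves out 6 other genes of the cytosolic ribosome, among them Rplp0, Rplp1, Rplp2, Rpsa and Fau, and these are given separately. It takes in Rps19bp1, which encodes a protein that binds a ribosomal protein and is not one itself.

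Messenger RNA in single nuclei was sequenced from pooled cortex and hippocampus of 9 male wild-type C57BL/6 mice, with 1 library per mouse and 3 mice per group. All mice had received an adeno-associated virus (AAV) into the retro-orbital sinus 8 weeks earlier, with a capsid and a short Cldn5 promoter directed at brain endothelial cells (BECs). Young mice with AAV-EGFP (5 months) and aged mice with AAV-EGFP (19 months) carried the control virus that makes a green fluorescent protein. Aged mice with AAV-B3GNT3 (19 months) carried a virus for B3GNT3, a glycosyltransferase that extends mucin-type O-glycans. Per the study's methods the young and the aged mice came from different suppliers, so age and source colony cannot be told apart. Expression was therefore compared between aged AAV-EGFP and young AAV-EGFP (ageing) and between aged AAV-B3GNT3 and aged AAV-EGFP (treatment). Both comparisons use the same 3 aged AAV-EGFP libraries.

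Each ribosome is built from a small subunit, which reads the messenger RNA, and a large subunit, which joins amino acids. Messenger RNAs of ribosomal proteins are short, abundant and mostly cytoplasmic, and their genes are compact. Many of them start with a run of pyrimidines, C or T in the DNA, the 5′ terminal oligopyrimidine (TOP) tract through which the mTOR kinase adjusts their translation. Counts from nuclei hold the RNA that is still in the nucleus and the RNA that stays attached to it or floats in the suspension.

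To show the annotated starts of genes that the comparisons turn on, the 20 bases before and the first 10 bases from the transcript start were read from RefSeq (GRCm38.p6, the build to which the reads were aligned). The longest run of C or T is in capitals.
Rpl13 (chr8:123102330-123102359, plus strand): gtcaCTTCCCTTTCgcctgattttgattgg
Rpl28 (chr7:4792945-4792974, plus strand): tcgtcccgcctctcgtgTCTCTCTTTCCgt
Rpl18 (chr7:45718051-45718080, plus strand): acgagtgcgtctcgcaggccgCTCTTTCCC
Rpl19 (chr11:98026690-98026719, plus strand): ccacgtgaccaaacgCCCTCactgcgcatg
Rps4x (chrX:102189382-102189411, minus strand): aaagTCTgaggctgggcggagcaacccagg
Rpl13a (chr7:45128736-45128765, minus strand): gataagaaaccctgcgacaagaCCTCCTCC

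The run had 11 bases in Rpl28, 10 in Rpl13, 9 in Rpl18, 8 in Rpl13a, 5 in Rpl19 and 3 in Rps4x. In Rpl13 and Rpl19 it lay wholly before the annotated start, outside the transcript as annotated, and in Rps4x the first of 2 runs of 3 is in capitals. Starts were listed for 63 of the 82 members, at 75 positions, and not for Rps27a. A run of at least 7 C or T lay in this window in 34 of the 75 member starts (45.3%) and in 19.2% of all 32851 starts listed. On the opposite strand, where such a run reads as A or G, the shares were 8% and 19.95%. The match describes letters in a window of annotated starts, and the start in use in these cells was not measured.

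All 82 members are annotated as protein coding, and they lie on 19 chromosomes, with 13 on chromosome 7. The median span from first to last exon was 3.27 kb, against 12.6 kb over all 31011 genes with coordinates. The median longest transcript was 1076.5 bases, against 2197 bases. Counting found 81 members with at least 1 molecule. Rpl10l, a retrogene relative of Rpl10 known from testis, had 0 in all 77823 barcodes.

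The libraries held 47332047 to 79964605 unique molecular identifiers (UMIs, each standing for 1 captured RNA molecule), and 70432 nuclei were kept. Pairs of libraries shared 7 to 37 cell barcodes. Classes were named from marker genes, and 7 were tested, namely excitatory neurons, inhibitory neurons, astrocytes, oligodendrocytes, oligodendrocyte precursor cells (OPCs), microglia and BECs. B3gnt3 itself was at or near 0 and does not check the labels. In BECs it had 9, 3 and 0 UMIs in the young AAV-EGFP libraries, 0 in each aged AAV-EGFP library, and 0, 4 and 3 in the aged AAV-B3GNT3 libraries, and a transgene transcript was not separable.

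The share of a class's UMIs that came from the 82 members differed between classes by more than 6 times. Averaged over 9 libraries it was 0.0714% ± 0.0131 (SD) in excitatory neurons, 0.0783% ± 0.0143 in inhibitory neurons and 0.107% ± 0.0275 in OPCs. It was 0.145% ± 0.0360 in astrocytes, 0.164% ± 0.0520 in microglia, 0.167% ± 0.0612 in oligodendrocytes and 0.458% ± 0.206 in BECs. Inhibitory neurons were above excitatory neurons in 9 of 9 libraries, as were OPCs above inhibitory neurons, astrocytes above OPCs and BECs above oligodendrocytes. Microglia were above astrocytes in 6 of 9 libraries and oligodendrocytes above microglia in 4, so these 3 classes were not ordered beyond their spread.

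Per nucleus, the order was another one. A BEC nucleus held 11.9 ± 5.38 member UMIs, an excitatory neuron 8.12 ± 1.54, an inhibitory neuron 7.35 ± 1.63 and an oligodendrocyte 3.57 ± 0.923 (mean ± SD, n = 9 libraries). The mean of the libraries' median counts of all UMIs was 10724 per excitatory neuron and 1982 per BEC. These values are descriptions, since classes come from clusters of the same nuclei.

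**Figure D1:**
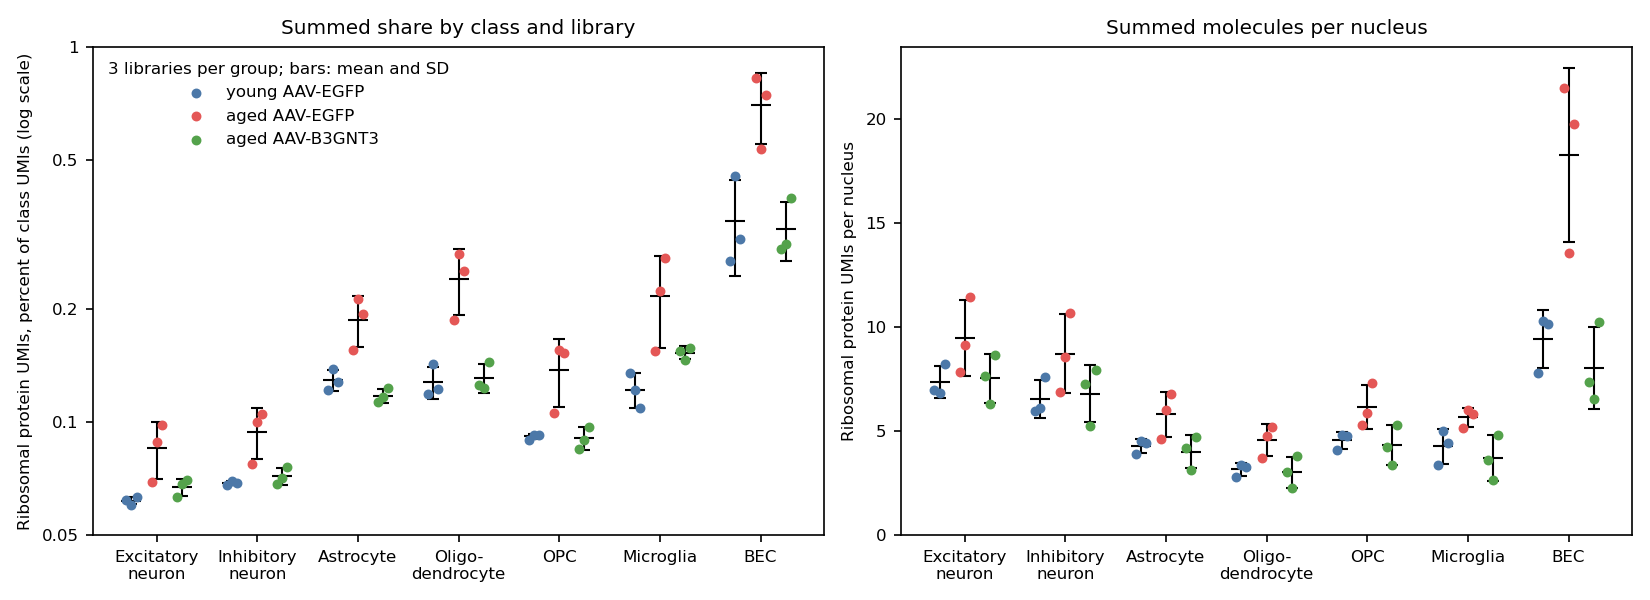
Summed UMIs of the 82 ribosomal protein genes in 7 classes, as a percent of the UMIs of the class on a log axis (left) and per nucleus (right). Each point is a library, and the bars give the mean and SD of 3 libraries. In percent, the 3 aged AAV-EGFP libraries lie above the 3 young AAV-EGFP libraries in each of the 7 classes.

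In ageing, the summed share was higher in all 7 classes, and in each of them the lowest aged AAV-EGFP library was above the highest young AAV-EGFP library. Oligodendrocytes, the myelin-forming cells, had 0.119%, 0.142% and 0.123% in the young AAV-EGFP libraries and 0.188%, 0.281% and 0.253% in the aged AAV-EGFP libraries. The group means were 0.128% ± 0.0128 and 0.241% ± 0.0480 (SD, n = 3), a ratio of 1.88. BECs had, again young before aged, 0.269%, 0.454% and 0.307% against 0.828%, 0.535% and 0.743%, a ratio of 2.05.

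The young AAV-EGFP libraries of microglia had 0.135%, 0.122% and 0.109%, and the aged ones 0.154%, 0.223% and 0.273%, a ratio of 1.78. In this class nuclei with over 3 times the median UMI count, 3.14 to 19.5% of the class per library, held 12.8 to 62.8% of the UMIs, and the summed markers of other classes were above those of microglia in 8 of 9 libraries. Ratios were 1.51 in OPCs and 1.45 in astrocytes, the glia that supply neurons and clear transmitter. They were smallest in neurons, at 1.38 in excitatory and 1.37 in inhibitory neurons. Excitatory neurons had 0.0619%, 0.0603% and 0.0632% in the young AAV-EGFP libraries and 0.0692%, 0.0883% and 0.0983% in the aged AAV-EGFP libraries.

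The 3 aged AAV-EGFP libraries were not alike. Aged AAV-EGFP replicate 1 was the lowest of its group in 6 of these classes and the highest in BECs. With only replicates 2 and 3, the aged AAV-EGFP mean was 0.267% in oligodendrocytes, 0.0933% in excitatory neurons and 0.639% in BECs.

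Aged AAV-B3GNT3 libraries were lower than aged AAV-EGFP libraries, without overlap in inhibitory neurons, astrocytes, oligodendrocytes, OPCs and BECs. Oligodendrocytes had 0.126%, 0.123% and 0.145% (mean 0.131% ± 0.0119), 0.545 times the aged AAV-EGFP mean. BECs, the cells the promoter is directed at, had 0.289%, 0.299% and 0.396% (mean 0.328% ± 0.0590), 0.467 times the aged AAV-EGFP mean. The ratio was 0.626 in astrocytes, 0.657 in OPCs and 0.760 in inhibitory neurons.

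Groups overlapped in excitatory neurons (ratio 0.787) and in microglia (ratio 0.706), in each case through aged AAV-EGFP replicate 1. Aged AAV-B3GNT3 and young AAV-EGFP libraries overlapped in 6 of the 7 classes, with ratios of their means from 0.907 to 1.09. Microglia were the exception, with 0.155%, 0.146% and 0.158% in aged AAV-B3GNT3 libraries, all above the 3 young AAV-EGFP libraries. This difference was not tested, and it was not seen per nucleus, where microglia had 3.70 member UMIs in aged AAV-B3GNT3 against 4.26 in the young group, with overlap (ratio 0.869).

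The shares depend on the total as well as on the members. Member UMIs per oligodendrocyte nucleus were 3.15 ± 0.2998 in the young group, against 4.55 ± 0.768 in aged AAV-EGFP, a ratio of 1.44 without overlap, beside 1.88 for the share. The median UMI count of all genes per oligodendrocyte was lower in aged AAV-EGFP (1529 to 1886 per library) than in young AAV-EGFP (2133 to 2495.5), and so was that of microglia (1427 to 1639 against 1960 to 2355). Per nucleus, the aged AAV-EGFP libraries were above the young AAV-EGFP libraries without overlap in 5 of the 7 classes, and the groups overlapped in both kinds of neurons. In treatment the count per nucleus was lower without overlap in OPCs, microglia and BECs (ratios 0.699, 0.653 and 0.440). It overlapped in oligodendrocytes (0.663), astrocytes (0.690) and inhibitory neurons (0.781), whose shares did not overlap.

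Gene by gene, UMI counts were summed per library and class and tested with edgeR's quasi-likelihood test on all genes, with Benjamini-Hochberg adjustment within a class and a threshold of 0.05. In oligodendrocytes, 63 of 78 members tested rose in ageing and 0 fell, against 11.1% of all 13208 genes that rose. In excitatory neurons 26 of 79 rose (7.48% of all genes), in astrocytes 21 of 78 (4.68%) and in inhibitory neurons 10 of 78 (2.14%). In OPCs 1 of 72 rose (0.637%). The median log2 fold change of the members was 0.92 in oligodendrocytes, 0.44 in excitatory neurons, 0.52 in astrocytes, 0.51 in inhibitory neurons and 0.64 in OPCs, while that of all genes tested lay within 0.03 of 0 in each class. Clustered more finely, oligodendrocytes split into clusters whose mix differed between groups. A cluster held 47 to 88 nuclei per young AAV-EGFP library, 655 to 1232 per aged AAV-EGFP and 177 to 753 per aged AAV-B3GNT3 library. Another held 30 to 33, 266 to 1152 and 39 to 423, where the class held 1330 to 2396, 1951 to 2609 and 1994 to 2806. The other oligodendrocyte clusters were smaller in aged than in young AAV-EGFP libraries. Members were not tested within these clusters.

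No member passed the threshold in microglia (66 tested, 0.0106% of all genes rose) or in BECs (63 tested, 0.0199%). There, 31 and 46 members had an unadjusted edgeR p under 0.05 (11% and 11.7% of all genes), DESeq2 called 0 and 2, and the median log2 fold changes were 0.82 and 1.13. The aged AAV-EGFP libraries were above the young AAV-EGFP libraries without overlap for 29 of 66 members in microglia (8.59% of all genes) and 43 of 63 in BECs (8.3%), and for 26 of 72 in OPCs (11.9%). BECs had 50 to 123 nuclei per library. Without nuclei of over 3 times the median UMI count of their class and library, a setting added after the data were seen, 21 members rose in microglia and 14 in BECs, where 12.2% and 5.58% of all genes were called in either direction.

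In treatment, 60 of 78 members fell in oligodendrocytes, 35 of 78 in astrocytes, 12 of 79 in excitatory neurons and 1 of 78 in inhibitory neurons. The shares of all genes that fell were 5.75%, 2.68%, 1.57% and 0.172%. The median log2 fold change was -1.02, -0.85, -0.54 and -0.59, in that order, and no member rose in any class. In OPCs (72 tested, 0.0856% of all genes fell), microglia (66 tested, 0% fell) and BECs (63 tested, 0.119% fell) 0 members passed in edgeR. There, 35, 18 and 48 had an unadjusted p under 0.05 (11.5%, 8.53% and 11.1% of all genes), and DESeq2 called 0, 0 and 2. Libraries did not overlap for 32 of 72 members in OPCs (9.56% of all genes), 20 of 66 in microglia (5.76%) and 48 of 63 in BECs (7.11%).

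**Figure D2:**
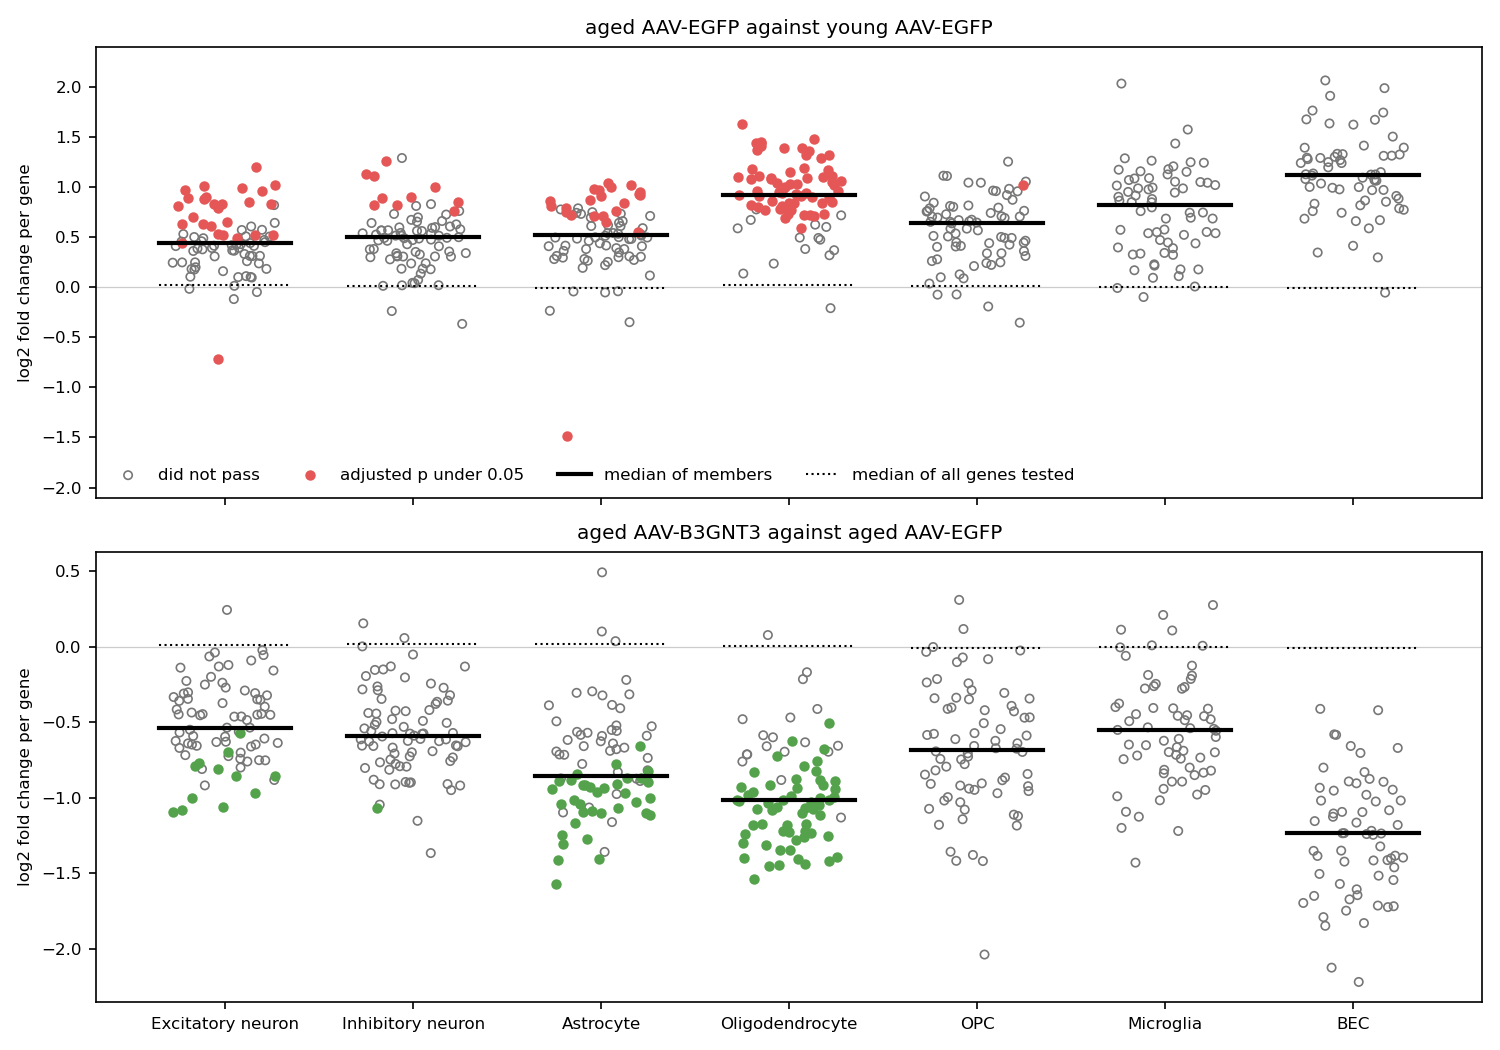
Log2 fold change of each ribosomal protein gene tested, by class, in ageing (top) and treatment (bottom). Filled points passed an adjusted p under 0.05, solid bars mark the median of the members and dotted bars that of all genes tested. In oligodendrocytes 63 points are filled above 0 in ageing and 60 below 0 in treatment.

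These counts depended on single libraries, and so did the calls among all genes, given here in either direction. Without aged AAV-EGFP replicate 1 the counts in ageing were 71 in oligodendrocytes, 46 in excitatory neurons, 32 in astrocytes, 25 in inhibitory neurons, 13 in OPCs and 10 in BECs, with 29%, 21.1%, 17.5%, 9.89%, 10.4% and 4.22% of all genes called. Without aged AAV-EGFP replicate 2 they were 40, 5, 2, 0, 0 and 0, with 13.4%, 2.98%, 5.06%, 0.0135%, 0.00948% and 0% of all genes called. In treatment, oligodendrocytes had 71 without aged AAV-EGFP replicate 1, against 32 when replicate 2 of that group was left out. They had 38 without aged AAV-B3GNT3 replicate 1 and 15 without aged AAV-B3GNT3 replicate 2. In these fits 13.3%, 3.58%, 4.11% and 0.737% of all genes were called. Astrocytes in treatment had 43, 1, 7 and 1 in the same order of libraries, and 22 without aged AAV-EGFP replicate 3. There, 6.16%, 0.229%, 1.92%, 0.11% and 3.13% of all genes were called. Over the 9 libraries left out in turn, all genes called in treatment ranged over 0.737 to 13.3% in oligodendrocytes and 0.11 to 6.16% in astrocytes.

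The counts also moved when a young AAV-EGFP library was left out. Without young AAV-EGFP replicate 3 the counts in ageing were 2 in excitatory neurons, 4 in astrocytes and 0 in inhibitory neurons, with 1.58%, 5.71% and 0% of all genes called, and those of treatment were 0 in excitatory and inhibitory neurons, with 0.0814% and 0.0671% of all genes called. Without young AAV-EGFP replicate 1 ageing gave 13, 5 and 0, with 8.13%, 8.12% and 0.456% of all genes called. The astrocyte counts of 4 and 5 were near or under those of all genes. Ageing gave 10, 12 and 5 without young AAV-EGFP replicate 2 (6.29%, 6.56% and 3.37%). When aged AAV-EGFP replicate 3 was left out it gave 8, 12 and 0 (4.29%, 4.62% and 0.0271%). For excitatory neurons in treatment, leaving out young AAV-EGFP replicate 2 or aged AAV-EGFP replicate 3 gave 4 (0.668% and 1.51% of all genes called). Leaving out aged AAV-EGFP replicate 2, aged AAV-B3GNT3 replicate 1 or aged AAV-B3GNT3 replicate 2 gave 0 (0.0117%, 0.0289% and 0.0174%). Leaving out aged AAV-EGFP replicate 1 or aged AAV-B3GNT3 replicate 3 gave 43 and 25 (6.56% and 8.74%). Over the 9 fits the members' median log2 fold change in ageing was 0.78 to 1.05 in oligodendrocytes, 0.38 to 0.58 in excitatory neurons, 0.42 to 0.64 in astrocytes and 0.36 to 0.58 in inhibitory neurons. In treatment it was -0.84 to -1.12, -0.44 to -0.66, -0.69 to -0.94 and -0.48 to -0.72 in the same order.

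Fewer members, and fewer of all genes, passed under 2 other settings, and not in oligodendrocytes alone. With the mitochondrial share as a covariate, 1 member rose in ageing in excitatory and 0 in inhibitory neurons (1.39% and 0% of all genes called). In treatment 0 fell in both (0.118% and 0.0895%). With an estimate of free RNA subtracted, 0 rose in astrocytes in ageing and 1 fell in treatment (0.609% and 0.109%). The values that follow are those of oligodendrocytes. With the mitochondrial share as a covariate, 9 members rose in ageing and 0 fell in treatment, their median log2 fold changes were 0.64 and -0.52, and 3.29% and 0.00757% of all genes were called in either direction. After an estimate of free RNA was subtracted, 1 rose and 0 fell, with medians of 0.90 and -1.04 and 0.12% and 0% of all genes called. Under these settings 44 and 61 members had an unadjusted edgeR p under 0.05 in ageing, and 13 and 71 in treatment. The share of all genes at that threshold is not given here, so these counts have nothing to be read against. The ratios of the summed shares moved little with that subtraction, to 1.87 in ageing and 0.533 in treatment in oligodendrocytes. Free RNA was taken to have the summed profile of all barcodes of the library, scaled by markers of other classes. Empty droplets were not used, so free RNA of another make-up was not removed by this setting and its part was not tested.

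**Figure D3:**
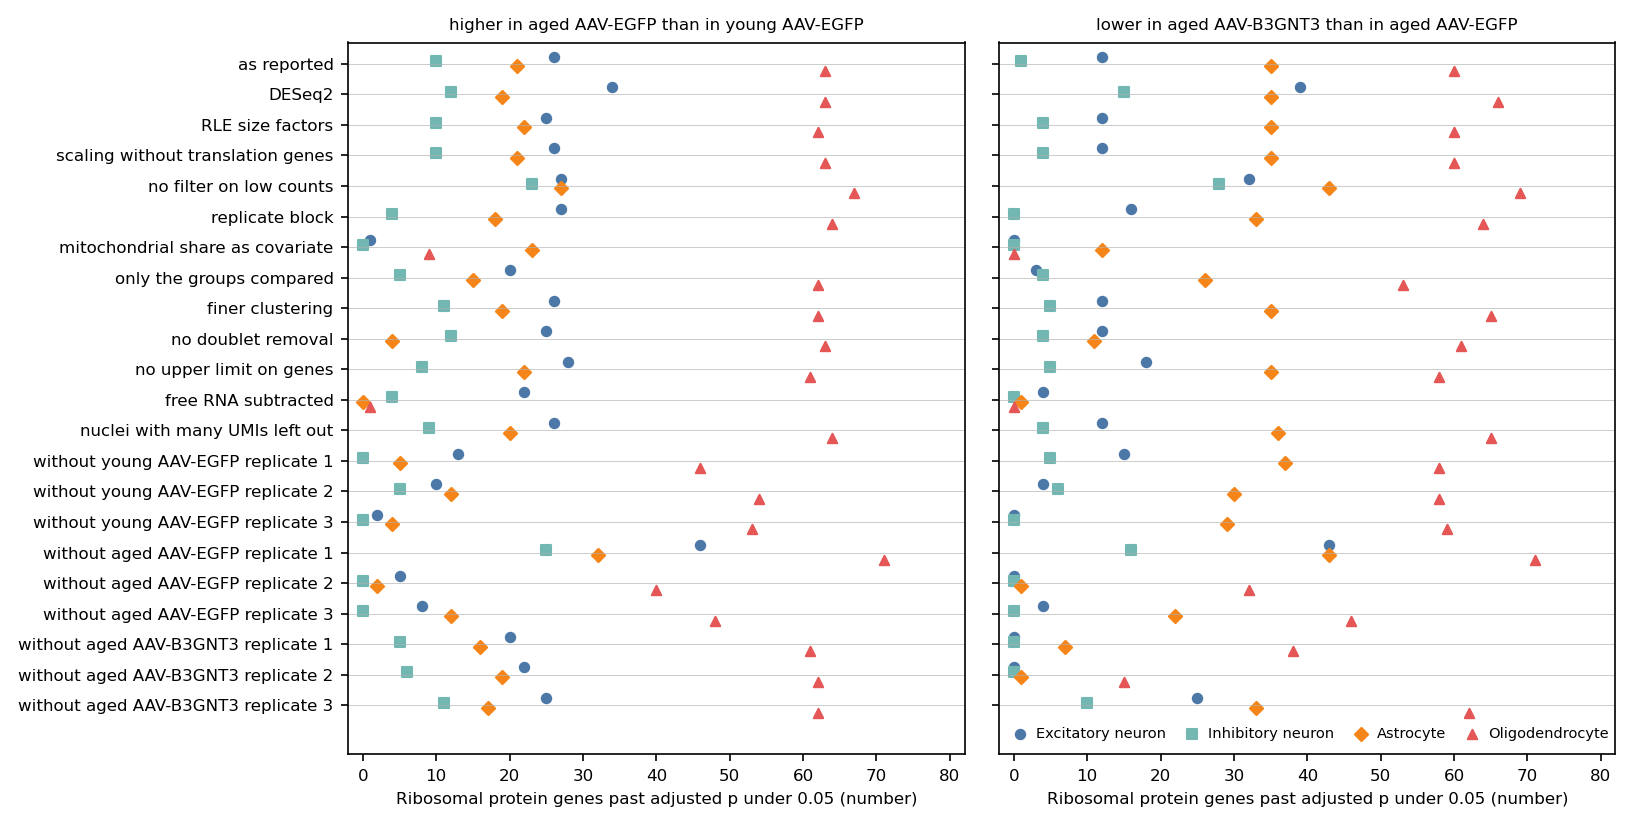
Number of ribosomal protein genes past an adjusted p under 0.05 (x axis) under each setting (y axis), for 4 classes, in ageing (left, higher) and treatment (right, lower). Oligodendrocytes range from 1 to 71 in ageing and from 0 to 71 in treatment.

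Of the 80 members tested in at least 1 class, 79 had a median log2 fold change above 0 over their classes in ageing and 78 one below 0 in treatment. Rises in ageing passed in 4 classes for 5 members, in 3 classes for 10, in 2 for 22 and in 1 for 27, and 16 did not rise in any class. Falls in treatment passed in 3 classes for 13 members, in 2 for 20 and in 1 for 29. All genes were not counted over classes in this way, so these counts have no share to be read against, and the classes come from the same mice. In oligodendrocytes, 38 of 46 large subunit and 25 of 32 small subunit genes rose in ageing, and 34 of 46 and 26 of 32 fell in treatment. Of all genes tested in this class, 11.1% rose in ageing and 5.75% fell in treatment.

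Among the most abundant members in the mean over 7 classes were Rpl13 (45.8 CPM), Rpl27a (43.0), Rpl41 (41.2), Rpl6 (37.8) and Rps2 (34.3), in counts per 1e+06 UMIs of the class. The protocol counts the 3′ ends of transcripts, so that these values are not divided by length. Rpl13 encodes a large subunit protein and rose in 4 classes in ageing. In oligodendrocytes Rpl13 had 25.2, 28.4 and 24.97 CPM in the young AAV-EGFP libraries, 56.5, 82.3 and 68.0 in the aged AAV-EGFP libraries and 20.6, 28.5 and 26.3 in the aged AAV-B3GNT3 libraries. All 3 aged AAV-EGFP values were above the 6 others. The log2 fold change was 1.40 ± 0.17 (SE) in ageing (adjusted p = 0.0020 in edgeR) and -1.45 ± 0.17 in treatment (adjusted p = 0.0042).

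Rpl13 was also the member called in OPCs, with 47.2, 34.6 and 35.1 CPM in young AAV-EGFP, 67.6, 98.0 and 68.5 in aged AAV-EGFP and 45.8, 40.9 and 40.7 in aged AAV-B3GNT3. The ageing change was 1.02 ± 0.20 (adjusted p = 0.036), and 10 of 21 other settings did not call it. Rpl13 held 4.79% of member UMIs in OPCs against a median of 2.30% over the 7 classes.

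Rpl28, another large subunit gene, rose in 4 classes in ageing and fell in 3 in treatment. In oligodendrocytes Rpl28 had 17.9, 17.5 and 17.3 CPM in young AAV-EGFP, 41.1, 53.6 and 49.0 in aged AAV-EGFP and 19.8, 18.3 and 22.1 in aged AAV-B3GNT3. The aged AAV-EGFP libraries stood apart from both other groups. The changes of Rpl28 were 1.44 ± 0.16 in ageing (adjusted p = 0.0016) and -1.25 ± 0.15 in treatment (adjusted p = 0.0042). In excitatory neurons Rpl28 changed by 1.02 ± 0.18 (adjusted p = 0.0089) and -1.06 ± 0.19 (adjusted p = 0.029).

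Rps4x, the X-linked small subunit gene, had the largest rise called in excitatory neurons. Its values there were 4.07, 5.88 and 5.15 CPM in young AAV-EGFP, 9.78, 13.5 and 11.5 in aged AAV-EGFP and 4.77, 4.95 and 6.65 in aged AAV-B3GNT3. The change was 1.20 ± 0.19 in ageing (adjusted p = 0.0062), held in all 21 other settings, and -1.08 ± 0.19 in treatment (adjusted p = 0.029). In astrocytes Rps4x had the largest fall called in treatment, from 16.3, 31.6 and 23.6 CPM in aged AAV-EGFP to 8.06, 9.90 and 5.46 in aged AAV-B3GNT3 (-1.57 ± 0.27, adjusted p = 0.013). The treatment calls of Rps4x were lost in 5 of 21 other settings in excitatory neurons and in 3 of 21 in astrocytes.

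Rpl18, of the large subunit, fell most in oligodendrocytes in treatment, from 24.9, 38.9 and 35.3 CPM to 9.60, 10.5 and 13.8 (-1.53 ± 0.22, adjusted p = 0.0061).

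Rps27a encodes a small subunit protein made as a fusion with ubiquitin. Rps27a had the largest rise called in inhibitory neurons, from 2.24, 4.08 and 3.96 CPM in young AAV-EGFP to 6.72, 9.99 and 8.11 in aged AAV-EGFP (1.27 ± 0.27, adjusted p = 0.031). The aged AAV-B3GNT3 libraries had 3.17, 4.59 and 5.04 CPM, and the change in treatment did not pass (adjusted p = 0.10). Rpl8, of the large subunit, was the member called in inhibitory neurons in treatment, from 9.89, 15.3 and 11.8 CPM to 6.19, 5.99 and 5.49 (-1.07 ± 0.20, adjusted p = 0.049), and it lost the call in 9 of 22 other settings. Rps27a lost its call in 7 of 22.

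Rpl19 and Rpl29, both of the large subunit, fell in excitatory neurons in treatment, Rpl29 by the most of the members called there. Rpl29 went from 6.53, 8.78 and 8.77 CPM to 3.88, 4.35 and 3.12 (-1.09 ± 0.20, adjusted p = 0.029), and Rpl19 from 11.4, 16.1 and 14.5 CPM to 6.98, 8.11 and 9.46 (-0.77 ± 0.16, adjusted p = 0.038). Rpl29 lost this call in 5 of 21 other settings and Rpl19 in 9.

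Rpl13a was the member that fell in ageing, in excitatory neurons and astrocytes, where 6.67% and 6.95% of all genes fell. Its product belongs to the large subunit and is also known as part of a complex that silences inflammatory messenger RNAs. In excitatory neurons Rpl13a had 3.91, 3.22 and 3.60 CPM in the young group, and in the aged AAV-EGFP libraries 2.18, 2.02 and 2.33 (-0.72 ± 0.19, adjusted p = 0.029). In astrocytes Rpl13a fell from 5.22, 6.63 and 5.95 CPM to 1.12, 2.46 and 2.53 (-1.48 ± 0.42, adjusted p = 0.035). Aged AAV-B3GNT3 libraries had 2.15, 2.18 and 1.95 CPM in excitatory neurons and 1.79, 3.71 and 3.36 in astrocytes, and both groups of aged mice overlapped. The fall lost its call in 6 of 21 other settings in excitatory neurons and in 9 of 21 in astrocytes. Rpl13a was low for a member, with 1606 UMIs in all barcodes against 10860 for Rpl13, and pseudogene copies of such genes can take part of the reads.

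Rpl22, Rpl12 and Rps24 passed in no class in either comparison, and were picked after their values were seen. Rpl22 had 15.6, 20.01 and 17.6 CPM in young AAV-EGFP, 19.9, 22.4 and 20.3 in aged AAV-EGFP and 19.8, 18.3 and 15.96 in aged AAV-B3GNT3 oligodendrocytes (0.24 ± 0.17 in ageing, adjusted p = 0.33). Rpl15 had a higher share of member UMIs in excitatory neurons (3.92%) than its median over classes (1.44%). There its change in ageing was -0.02 ± 0.13, although Rpl15 rose in oligodendrocytes (0.78, adjusted p = 0.032). In treatment Rpl15 fell in oligodendrocytes (-1.11, adjusted p = 0.015) and astrocytes (-0.92, adjusted p = 0.024).

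Paralogues were measured beside their main forms in CPM, which share the limits above. Rpl3l, known from heart and skeletal muscle, had 88 UMIs in astrocytes (3.27 CPM) against 23.4 CPM for Rpl3, and 0 in BECs, where Rpl3 had 60.3 CPM. Its part of member UMIs in astrocytes was 0.235%, against a median of 0.0294% over the classes. Rpl22l1 stood at 14.2 CPM in oligodendrocytes beside 18.6 for Rpl22, and Rpl7l1 at 26.2 CPM in microglia beside 14.3 for Rpl7.

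Rpl36al had 7.88 CPM in oligodendrocytes and Rpl36a 8.55, while in astrocytes Rpl36a reached 17.1 and Rpl36al 5.80. Rps27l and Rps27rt were low, at 3.51 and 1.17 CPM in oligodendrocytes beside 36.4 for Rps27. Rpl39l had 7 UMIs in all barcodes. Near-identical sequences can exchange reads, so the split within these pairs is uncertain.

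Some members held a higher share of member UMIs in 1 class than in the others. Among member UMIs, Rps9 held 1.83% in microglia against a median of 1.12%, and Rpl38 2.11% in BECs against 1.17%. Rps9 in microglia had 29.7, 20.03 and 17.2 CPM in the young group, against 34.1, 40.6 and 48.6 in aged AAV-EGFP (adjusted p = 0.37). Rpl38 in BECs had 82.3, 77.9 and 63.0 CPM in the young group, against 189, 104 and 182 in aged AAV-EGFP (adjusted p = 0.16).

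Other genes of the same machinery were read in the same fits. Of the 6 other cytosolic ribosome genes, all 6 rose in oligodendrocytes in ageing (median log2 fold change 1.17) and all 6 fell in treatment (-1.24), against 11.1% and 5.75% of all genes. Mitochondrial ribosomal protein genes, which serve translation inside mitochondria, had smaller changes in the median. In oligodendrocytes 15 of 77 rose in ageing (median 0.39, against 11.1% of all genes), and in treatment 6 fell (-0.29), a share near the 5.75% of all genes. Of 15 translation elongation and other TOP genes, 6 rose there in ageing, among them Eef1a1, which brings aminoacyl-tRNA to the ribosome, while in treatment 5 fell and 1 rose (Eif3e, a subunit of an initiation factor), against 11.1% of all genes that rose in ageing, and 5.75% that fell and 3.32% that rose in treatment.

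Ribosome biogenesis genes, which make and process ribosomal RNA in the nucleolus, were read beside the members. In ageing, 4 of 20 fell in excitatory neurons (Wdr12, Utp14a, Ubtf and Rrp1b), against 6.67% of all genes. In oligodendrocytes 2 of 20 rose and 1 fell, near or under the 11.1% and 10.2% of all genes. In treatment 5 of 20 rose in oligodendrocytes (Nop58, Wdr12, Polr1b, Nop56 and Gnl3) and 3 of 19 in astrocytes, against 3.32% and 1.81% of all genes. The median log2 fold change in treatment was 0.28 in oligodendrocytes and 0.47 in astrocytes, against -1.02 and -0.85 of the members. It was 0.25 in excitatory and in inhibitory neurons, 0.24 in OPCs and 0.02 in microglia. In BECs it was -0.43 over the 4 genes tested, on the side of the members.

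A list of short abundant messenger RNAs outside translation was read in the same way. It held 18 gene symbols, listed under 19 gene identifiers, such as Gapdh of glycolysis, the ferritins Fth1 and Ftl1, Actb and subunits of cytochrome oxidase. In oligodendrocytes 15 of 18 rose in ageing (median 1.23, beside 0.92 of the members) and 16 fell in treatment (-1.33, beside -1.02), against 11.1% and 5.75% of all genes. In astrocytes 10 rose (0.78, beside 0.52) and 16 fell (-1.09, beside -0.85), against 4.68% and 2.68%. The ageing medians of the list and of the members were 0.79 and 0.44 in excitatory neurons and 1.14 and 1.13 in BECs. Their summed share in oligodendrocytes was 0.108 to 0.124% in young AAV-EGFP, 0.183 to 0.302% in aged AAV-EGFP and 0.106 to 0.124% in aged AAV-B3GNT3. In OPCs 5 of these genes rose in ageing (0.637% of all genes). In BECs, where no member passed, 2 fell in treatment (0.119% of all genes), Tmsb4x, which binds actin monomers, and Ubb, a ubiquitin gene.

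**Figure D4:**
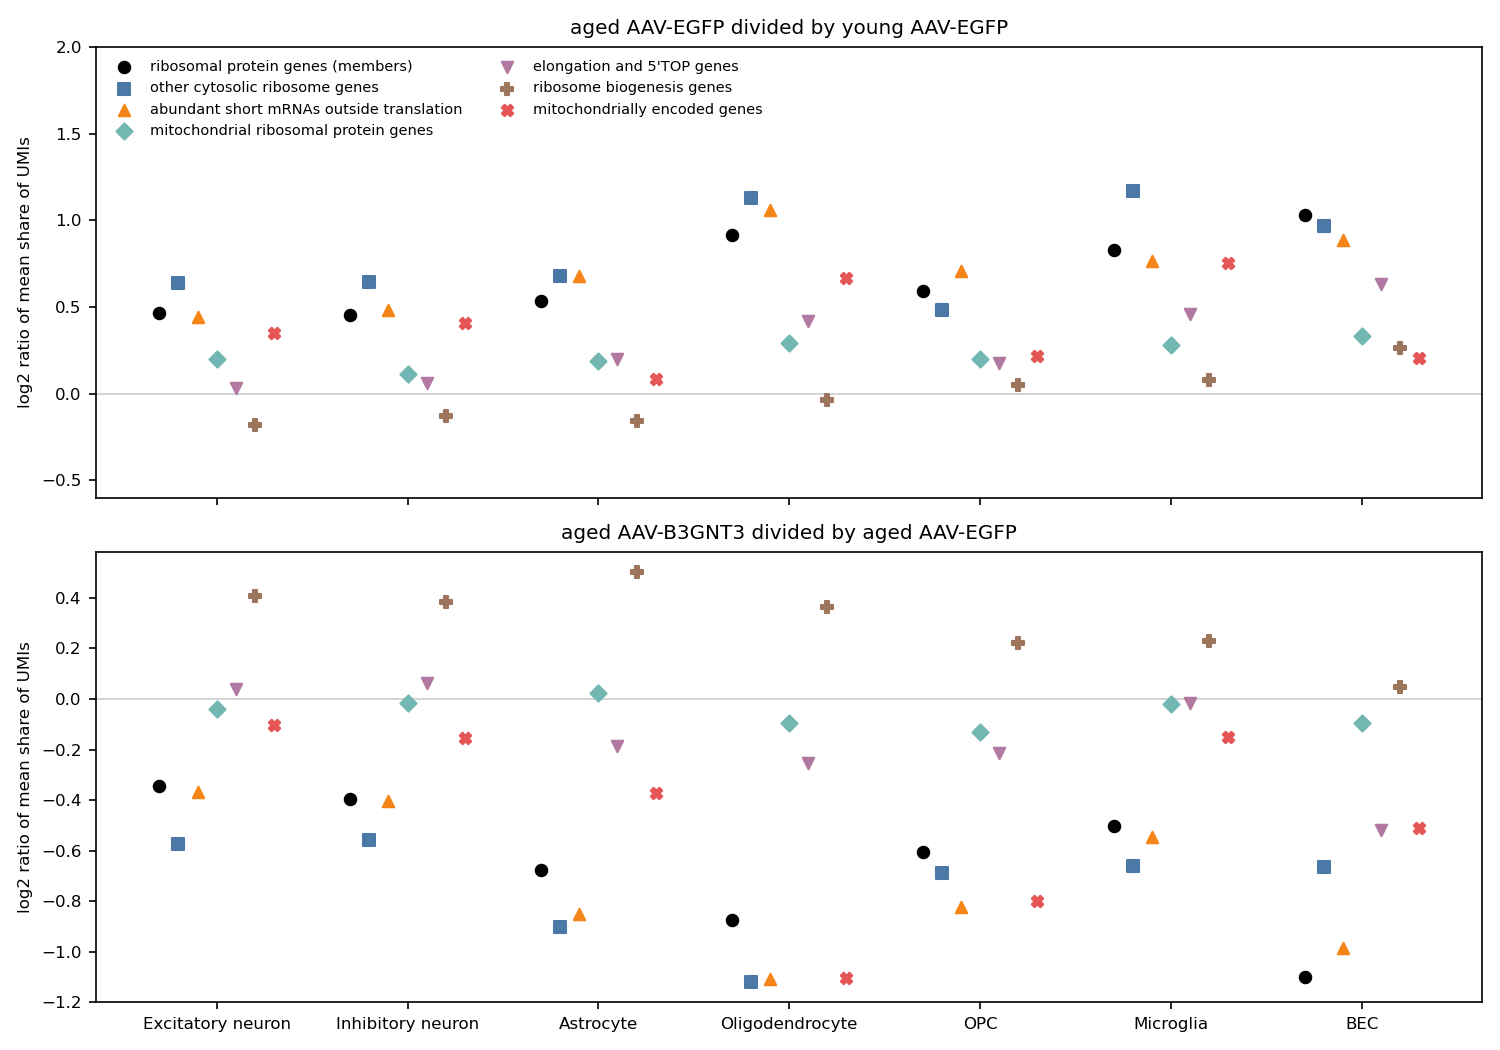
Log2 ratio of the mean share of UMIs between groups, for the ribosomal protein genes and 6 other gene lists, by class, in ageing (top) and treatment (bottom). The ribosomal protein genes, the other cytosolic ribosome genes and the abundant short messenger RNAs lie above 0 in ageing and below 0 in treatment in each class, and ribosome biogenesis genes lie above 0 in treatment.

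In the median, genes under 5 kb other than members changed in the direction of the members in each class. Among genes other than members, those under 5 kb had a median log2 fold change of 0.55 in oligodendrocytes in ageing, with 26.9% of 1151 higher, and -0.54 in treatment, with 22.2% lower. Genes of 100 kb or more had medians of -0.28 and 0.16 in oligodendrocytes. In ageing their median was below 0 in each class. In treatment it was above 0 in astrocytes, oligodendrocytes and OPCs. It was below 0, on the side of the members, in excitatory neurons (-0.019), inhibitory neurons (-0.018), microglia (-0.13) and BECs (-0.042). In BECs the medians under 5 kb were 0.94 and -0.90 over 123 genes, beside 1.13 and -1.24 for the members. In oligodendrocytes 80.8% of members tested rose in ageing and 76.9% fell in treatment, and expression level was not matched in setting these shares side by side. Within the members, Spearman's rho of the ageing change with span was -0.36 over 79 members in excitatory neurons and -0.08 over 78 in oligodendrocytes, as a description over genes that share libraries.

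**Figure D5:**
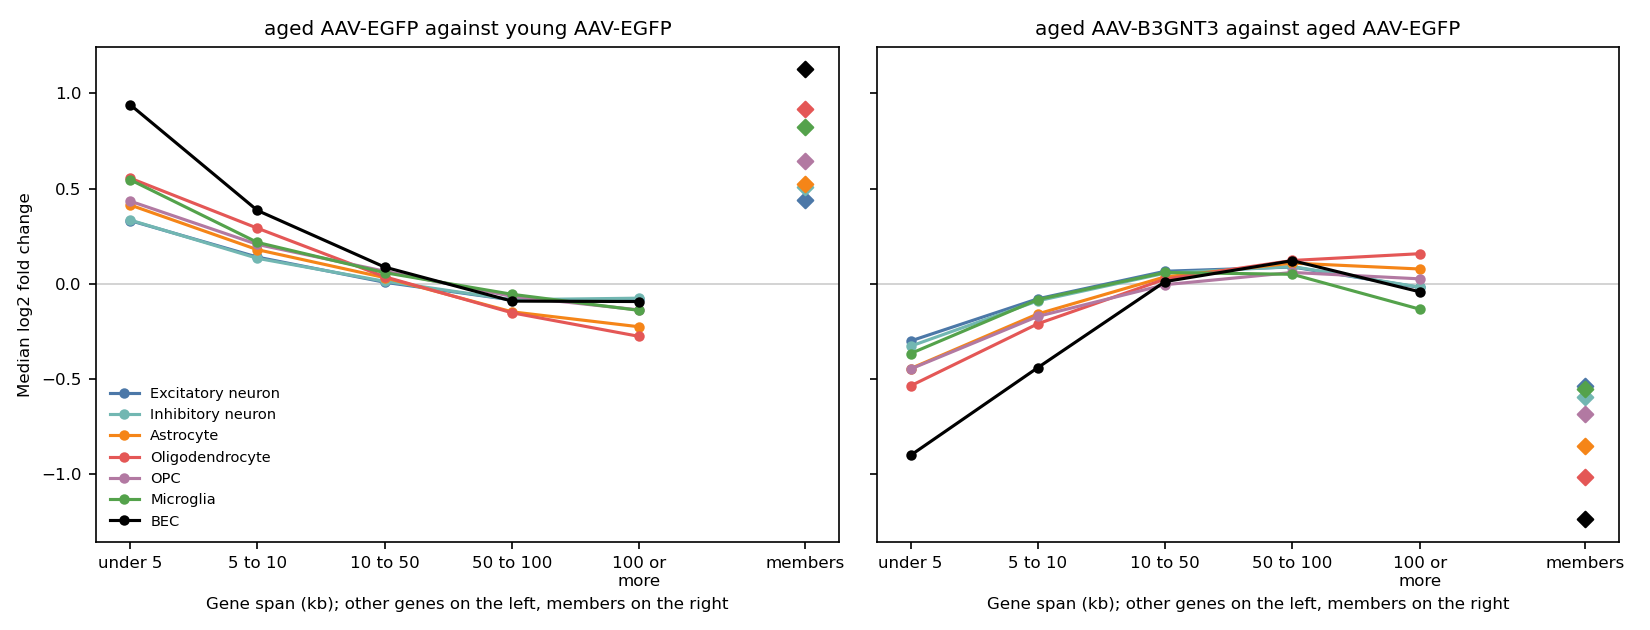
Median log2 fold change of genes other than members by gene span in kb (lines, 1 per class), and the median of the members (diamonds), in ageing (left) and treatment (right). In each class the shortest genes lie on the side of the members.

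Other measures of the libraries are given beside these results, and beyond the settings above their part in the results was not tested. In oligodendrocytes mitochondrially encoded genes took 0.00810 to 0.0138% of UMIs in young AAV-EGFP, 0.0116 to 0.0217% in aged AAV-EGFP and 0.00682 to 0.00905% in aged AAV-B3GNT3, so that groups overlapped in ageing and not in treatment. Of the 10 mitochondrially encoded genes tested there, 3 rose in ageing (mt-Co1, mt-Co2 and mt-Co3) and 5 fell in treatment. Of all genes tested in oligodendrocytes, 11.1% rose in ageing and 5.75% fell in treatment. In microglia the mitochondrial share was higher in aged than in young AAV-EGFP without overlap, and in OPCs it was lower in treatment without overlap (0.00897% to 0.00515%, ratio 0.575). The summed markers of other classes in oligodendrocytes were 0.130 to 0.197%, 0.115 to 0.153% and 0.143 to 0.174% in the same order of groups. Nor were they higher without overlap in aged AAV-EGFP in any other class tested. The estimated part of free RNA in excitatory neurons was lower in aged AAV-EGFP (7.77 to 11.8%) than in young AAV-EGFP (14.03 to 16.8%), and likewise in astrocytes (16.9 to 26.2% against 26.7 to 31.3%). In the other classes the groups overlapped, and over 9 libraries the estimates were 6.1 to 21.8% in inhibitory neurons, 21.3 to 51.9% in oligodendrocytes, 32.1 to 59.2% in OPCs, 37.4 to 90% in microglia (90% being the highest the estimate was allowed to take) and 29.6 to 52.3% in BECs. In BECs the summed BEC markers were themselves higher in aged AAV-EGFP, at 1.49 to 1.61%, than in young AAV-EGFP (0.952 to 1.18%) and aged AAV-B3GNT3 (1.09 to 1.25%).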

How the data were processed

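Nuclei of cortex and hippocampus from 9 mice were sorted and sequenced by the authors with droplet 3′ chemistry, and 1 matrix of UMI counts per mouse was deposited. Per the labels the reads were processed with Cell Ranger 4.0.0, and per the file headers with 7.2.0, on mm10 (GRCm38). The deposited counts are raw. Whether intronic reads were counted is not given in the sources used here. The removal of free RNA and doublets described in the methods could not be seen in them.

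Barcodes entered with 200 to 5000 genes and no more than 10% of UMIs from mitochondrial genes, and the barcodes with the highest doublet scores were removed (0.8% per 1000 barcodes). Clusters (scanpy 1.11.5, leidenalg 0.10.2) were made from 2000 variable genes without the members and mitochondrial genes, with 15 principal components, 20 neighbours and resolution 0.3, and named from marker genes. The microglia class also holds macrophage-type nuclei. Inhibitory neurons hold a striatal-type cluster of 3686 of their 8228 nuclei, so they are not interneurons alone. Its part differed between libraries, from 140 of 514 in young AAV-EGFP replicate 3 to 592 of 1087 in aged AAV-EGFP replicate 3. A cluster with glutamatergic and GABAergic markers was left out by a rule set after the clusters were seen. By another such rule, a cluster of 313 nuclei was left out of the oligodendrocytes. Its marker score was under 50% of that of the best oligodendrocyte cluster, and 127 of its nuclei came from young AAV-EGFP replicate 2.

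Counts were summed per library and class. All 9 libraries entered 1 edgeR 4.0.16 quasi-likelihood fit per class (R 4.3.3, TMM factors, filterByExpr with a minimum count of 10). P-values measure the spread between mice. Exact Clopper-Pearson 95% intervals of the summed shares were within 8.67% of the value in BECs and 1.86% in excitatory neurons, and cover counting error only. Tested on data with known changes, the ageing fit in oligodendrocytes, with 13 false calls, recovered 48.5% of genes changed 2-fold and 93.75% changed 4-fold (13006 genes), and in BECs, with 4 false calls, 15.4% and 76.9% (4664 genes).

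Named members were the 6 most abundant, the 5 called in most classes per comparison, the called member with the largest rise or fall per class, paralogues, and the member most particular in share to each class. Members and lists were chosen with earlier results of these data known. Alternatives were DESeq2 1.42.0, RLE factors, other scaling, filters, clustering and covariates, and leaving out each library. Values of some named members are not reported here.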

Additional observations from a re-analysis of the deposited data

Results flagged for a closer look

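The members were also summed in barcodes that no comparison above used. Among barcodes removed by the limits and the doublet score, the mean member share was 0.0625% for young AAV-EGFP mice, 0.0898% for aged AAV-EGFP mice and 0.0654% for aged AAV-B3GNT3 mice, without overlap of aged AAV-EGFP with either. In pericytes, the contractile cells around capillaries, the means were 0.157%, 0.281% and 0.160%, and in fibroblasts 0.154%, 0.277% and 0.163%, in the same order and again without overlap. In the cluster with glutamatergic and GABAergic markers the means were 0.0989%, 0.194% and 0.107%, with 0.112%, 0.308% and 0.163% in the aged AAV-EGFP libraries. There, ageing did not overlap and treatment did.

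Rpl36a, of the large subunit, differed in direction between classes in ageing. In astrocytes every aged AAV-EGFP library (14.6, 17.7 and 17.7 CPM) was below every young AAV-EGFP library (22.0, 18.9 and 23.4 CPM), with a log2 fold change of -0.35 that did not pass (adjusted p = 0.29 in edgeR). In oligodendrocytes Rpl36a rose by 1.10 (adjusted p = 0.010), and its values of 0.63 in inhibitory neurons and 1.13 in BECs did not pass. The difference between classes was not tested.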

How the results depend on the processing

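Of the counts of members called and group shares under other settings, 327 kept within range of the reported value, 131 moved and 0 reversed. These totals do not measure robustness, since part of them was fixed in advance. A share has no sign and could not reverse, nor could a count reported as 0. A count of 0 that stayed at 0 was taken as kept. A share was taken as moved beyond the SD of its group's libraries, which leaving out a single library cannot reach. The cause of each move was not tested. In each group of values that follows the order is excitatory neurons, inhibitory neurons, astrocytes, oligodendrocytes, OPCs, microglia and BECs, and only counts that moved by over 1.5 times are given, each with the share of all genes called in either direction in the same fit in parentheses.

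In ageing, DESeq2 called 2 in BECs (0.417%). With no filter on low counts, 23 were called in inhibitory neurons, 3 in OPCs, 5 in microglia and 8 in BECs (6.35%, 3.41%, 0.795% and 0.67%), of which the OPC count is near that of all genes. The mitochondrial share as a covariate gave 1, 0 and 9 in excitatory neurons, inhibitory neurons and oligodendrocytes (1.39%, 0% and 3.29%). The members' median log2 fold changes were then 0.36, 0.32 and 0.64. Only the groups compared gave 5 in inhibitory neurons and 0 in OPCs (1.93% and 0.0199%). Subtracted free RNA gave 4, 0, 1 and 0 from inhibitory neurons to OPCs (0.974%, 0.609%, 0.12% and 0%), with median log2 fold changes of the members of 0.50, 0.46, 0.90 and 0.61. No doublet removal gave 4 in astrocytes and 2 in OPCs (1.57% and 0.845%), finer clustering 0 in OPCs (0.305%), and no upper limit on genes 4 in OPCs and 15 in microglia (5.44% and 8.54%). Without nuclei of many UMIs, an alternative chosen after seeing the data, 21 were called in microglia and 14 in BECs (12.2% and 5.58%).

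In treatment, DESeq2 called 39, 15 and 2 in excitatory neurons, inhibitory neurons and BECs (8.03%, 2.7% and 0.457%). With no filter, 32, 28, 7, 2 and 11 were called in excitatory neurons, inhibitory neurons, OPCs, microglia and BECs (4.11%, 3.41%, 1.35%, 0.791% and 0.597%). The mitochondrial share gave 0 in both kinds of neurons and oligodendrocytes and 12 in astrocytes (0.118%, 0.0895%, 0.00757% and 2.59%). Only the groups compared gave 3 and 4 in the neurons (0.618% and 1.23%). Subtracted free RNA gave 4, 0, 1 and 0 in the first 4 classes (0.605%, 0.0577%, 0.109% and 0%), where the median log2 fold change in astrocytes was -0.86. In inhibitory neurons, where 1 was called, RLE factors, scaling without translation genes, no doublet removal and leaving out nuclei of many UMIs each gave 4 (0.523%, 0.592%, 0.541% and 0.616%), finer clustering and no upper limit 5 (0.65% and 0.57%), and the mixed cluster (included after seeing the data) 0 (0.0648%). No doublet removal gave 11 in astrocytes and 2 in OPCs (1.23% and 0.267%), no upper limit 7 in OPCs and 2 in microglia (1.94% and 0.7%), and leaving out nuclei of many UMIs 2, 3 and 4 in OPCs, microglia and BECs (0.45%, 0.939% and 1.4%).

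Leaving out 1 library gave, in the class order above, 2 to 46, 0 to 25, 2 to 32, 40 to 71, 0 to 13, 0 to 0 and 0 to 10 in ageing, and 0 to 43, 0 to 16, 1 to 43, 15 to 71, 0 to 7, 0 to 1 and 0 to 6 in treatment. All genes called ranged, in that order, over 1.58 to 21.1%, 0 to 9.89%, 4.62 to 17.5%, 10.7 to 29%, 0.00941 to 10.4%, 0 to 0.264% and 0 to 4.22% in ageing and 0.0117 to 8.74%, 0 to 3.57%, 0.11 to 6.16%, 0.737 to 13.3%, 0 to 1.15%, 0 to 2.06% and 0 to 2.58% in treatment. Same-numbered libraries did not deviate together as a rule (63 pairs, r from -0.37 to 0.31, 12 above 0.1). For young AAV-EGFP replicate 1 with aged AAV-B3GNT3 replicate 1, r was 0.05 in BECs to 0.31 in inhibitory neurons. For aged AAV-EGFP replicate 1 with the same library it was -0.26 in excitatory neurons to 0.0046 in BECs. The labels do not say what the number stands for, and whether it marks a shared preparation was not tested. The replicate block gave 4 in inhibitory neurons in ageing (1.24%) and 0 in treatment (0.0895%), and moved no other count by over 1.5 times.

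With free RNA subtracted, the mean shares in the young group, the aged control group and the B3GNT3 group were 0.193%, 0.347% and 0.213% in microglia and 0.509%, 1.01% and 0.465% in BECs. Young AAV-EGFP means were 0.0589%, 0.0669%, 0.146%, 0.149% and 0.0970% from excitatory neurons to OPCs, and aged AAV-B3GNT3 means 0.125% in astrocytes and 0.148% in oligodendrocytes. No doublet removal gave 0.119% and 0.112% in young AAV-EGFP and aged AAV-B3GNT3 astrocytes, 0.0886% in young AAV-EGFP OPCs and 0.129% in aged AAV-B3GNT3 microglia, and all barcodes 0.0777% and 0.0818% in place of kept nuclei in young AAV-EGFP and aged AAV-B3GNT3. Changes of named members kept their call in 796 cases and lost it in 239, with no change of sign.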

Other observations

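Clustered at a finer resolution, 601 nuclei (0.853% of those kept) formed a cluster with few UMIs that no marker list named. It was picked as the unnamed cluster with the highest member share, so its high share was fixed by that choice. Pooled over all libraries, ribosomal protein genes took 0.712% of the UMIs of these nuclei, and mitochondrially encoded genes 0.513%. By library, the member share was 0.380%, 0.573% and 0.425% for young AAV-EGFP, 1.36%, 1.49% and 1.59% for aged AAV-EGFP mice, and 0.450%, 0.325% and 0.542% in aged AAV-B3GNT3. The aged AAV-EGFP values lay above both other groups without overlap. The mitochondrial share of the cluster was 0.509%, 1.32% and 1.56% for aged AAV-EGFP mice, against 0.316 to 0.444% for young mice and 0.2 to 0.518% for aged AAV-B3GNT3 mice, with overlap only between aged AAV-EGFP replicate 1 and the last group. These libraries gave 29, 46 and 20 of the nuclei, and the differences were not tested.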
